A study of Mus musculus with 2 samples.

Results

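The hedgehog pathway members Hhip, Ptch1, Smo, Gli1, Gli2, Gli3 and Ihh were followed across the liver cell classes of 2 single-cell RNA libraries. They were taken by gene symbol and make up 7 of the 32285 genes counted in each library. The set was chosen by the UMI counts of these genes in stellate cells and other classes of both libraries, Hhip above all for its low count in knockout stellate cells, so that difference is given as a description and nothing is rested on it.

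The hedgehog pathway passes a signal from a secreted ligand to the nucleus. Indian hedgehog (Ihh) and its relatives Shh and Dhh bind the receptor Ptch1, which otherwise holds the transducer Smo inactive, and active Smo turns the transcription factors Gli2 and Gli3 toward gene activation. Ptch1, Gli1 and Hhip are themselves induced by the pathway, and Hhip is a membrane protein that captures ligand and so limits the signal. In the liver, hepatic stellate cells, the vitamin A-storing pericytes of the sinusoid, are known as hedgehog-responsive cells.

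The WT library was made from the liver of control mice. The N-LKO library was made from liver plus tumor of mice in which albumin-Cre, active in hepatocytes, deleted a loxP-flanked NgBR (Nus1) allele. Both groups were male C57BL6 mice that received the diet for 16 weeks, named a high-fat diet in the sample titles and WD in the treatment labels. The study states that the mice of its single-cell data were fed the WD, a Western-type diet high in fat and cholesterol. There was 1 library per group, so no test between genotypes was possible, all intervals cover counting error only, and genotype, tumor tissue and library cannot be told apart. Hepatocytes and nonparenchymal cells were mixed at set ratios before loading, with tumor cells added for N-LKO, so the shares of classes are not compared.

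The WT library held 85522287 unique molecular identifiers (UMIs, each 1 captured RNA molecule) and the N-LKO library 87575064. After filtering, 18431 WT and 19855 N-LKO cells remained, with medians of 1400 and 1455 UMIs per cell, and 121 of them carried a barcode kept in both libraries. Cells were grouped without using the hedgehog pathway genes. Levels are given as CPM, the UMIs of a gene per 1000000 UMIs of the class, with exact 95% Poisson intervals. Nus1, the targeted gene, measured 73.0 CPM in hepatocyte-like cells from WT against 34.3 CPM in those from N-LKO, and 81.0 against 79.7 CPM in hepatic stellate-like cells.

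Hepatic stellate-like cells numbered 902 in WT and 629 in N-LKO. All 10 stellate markers were detected in both libraries, but their summed level was 10227 CPM in WT against 5912 CPM in N-LKO. The class also held RNA of other types. The 10 macrophage markers, all detected in both libraries, summed to 3501 CPM in WT against 2419 CPM in N-LKO, and the 10 endothelial markers, also all detected, to 4116 and 1975 CPM. The 10 hepatocyte markers were again all detected and summed to 7176 and 6984 CPM. Of the 7 smooth muscle markers 5 were detected in each library, summing to 131 and 103 CPM, and Cnn1 and Actg2 were at 0 in both. Markers of several scarcer types had higher sums in N-LKO. The portal fibroblast markers, of which 6 of 10 were detected in WT and 10 in N-LKO, summed to 36.6 and 113 CPM, the neutrophil markers to 49.8 and 140.5 CPM, the plasma cell markers to 22.2 and 83.4 CPM and the cholangiocyte markers to 26.4 and 87.0 CPM. Mitochondrial genes took 10.6% of UMIs in WT and 16.2% in N-LKO. The part of these shifts in the results on stellate-like cells was not tested. Some values are also given without a sub-cluster led by macrophage genes. Fewer stellate cells in a droplet and less RNA per stellate cell cannot be told apart.

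RefSeq promoter windows on GRCm38.p6, running from 250 bases before to 50 bases after 1 transcript start per gene, were available for 6 of the 7 members, and Gli1 had no entry. The 3 windows below belong to the members measured best in stellate-like cells: Hhip and Ptch1, both known targets of the pathway, and Gli3, a transcription factor of the pathway. Capitals mark the letters CCACCC, the core of the GLI binding motif, or its reverse complement GGGTGG.
Hhip promoter, chr8:80057959-80058258, minus strand: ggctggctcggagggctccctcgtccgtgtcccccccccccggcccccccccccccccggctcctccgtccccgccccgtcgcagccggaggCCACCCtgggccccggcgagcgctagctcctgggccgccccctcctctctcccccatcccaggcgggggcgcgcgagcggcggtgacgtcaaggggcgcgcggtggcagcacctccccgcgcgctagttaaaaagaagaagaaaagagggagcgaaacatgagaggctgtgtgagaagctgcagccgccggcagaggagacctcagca
Ptch1 promoter, chr13:63565686-63565985, minus strand: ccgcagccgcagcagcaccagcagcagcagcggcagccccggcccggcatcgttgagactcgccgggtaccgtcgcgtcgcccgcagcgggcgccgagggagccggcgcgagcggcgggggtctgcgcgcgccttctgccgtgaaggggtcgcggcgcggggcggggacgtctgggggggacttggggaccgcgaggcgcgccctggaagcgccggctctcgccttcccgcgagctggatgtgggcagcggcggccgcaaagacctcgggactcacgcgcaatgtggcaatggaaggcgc
Gli3 promoter, chr13:15463473-15463772, plus strand: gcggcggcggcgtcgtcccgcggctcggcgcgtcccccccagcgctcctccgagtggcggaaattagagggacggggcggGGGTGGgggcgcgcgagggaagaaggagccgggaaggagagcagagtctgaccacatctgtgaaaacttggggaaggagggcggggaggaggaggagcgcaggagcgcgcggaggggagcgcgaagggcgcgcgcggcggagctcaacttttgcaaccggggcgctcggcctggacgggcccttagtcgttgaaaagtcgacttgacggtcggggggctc
The full motif GACCACCCA was searched on both strands, and it was in none of the 6 member windows and in 0.253% of 32851 promoters. Its core CCACCC, which lies within the full motif, was found once in the Hhip window, 158 bases before the start, and once in the Gli3 window, 170 bases before the start on the other strand. It was not in the Ptch1 window. In the GENCODE annotation Ptch1 begins at position 63573598 and Gli3 at position 15463235 of chromosome 13, so both windows lie inside the annotated genes, and the outermost start of Ptch1 was not searched. Since 31.5% of all promoters held the core, these matches describe the letters in the windows and nothing about binding.

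Hhip, the ligand-capturing inhibitor, was concentrated in stellate-like cells and was lower there in N-LKO. WT stellate-like cells held 201 Hhip UMIs, or 120.5 CPM (104 to 138), and N-LKO stellate-like cells held 9, or 8.16 CPM (3.73 to 15.5). The WT level was 14.8 times the N-LKO level (7.63 to 32.8), a log2 ratio of N-LKO over WT of -3.81 (-5.04 to -2.93). Across the stellate-like class, 7.88% of 12117 expressed genes were at least 2-fold lower in N-LKO. Hhip stood at rank 8 of these 12117 genes from the lowest ratio, and at rank 4 of the 5727 genes with at least 50 UMIs in WT.

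The other genes at that end of the ranking were of several kinds. Above 50 WT UMIs, Ptprt, Mup7 and Cd163 had lower ratios than Hhip, at -4.57, -4.02 and -3.87. Mup7 encodes a major urinary protein of hepatocytes and Cd163 a scavenger receptor of Kupffer cells, so the lowest ratios included genes known from other cell types.

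Hhip was spread thinly over the WT cells. Of 902 WT stellate-like cells, 142 held 1 Hhip UMI, 17 held 2, 7 held 3 and 1 held 4, which is 18.5% of cells with a UMI (exact binomial 95% interval, 16.0 to 21.2). Of 629 N-LKO cells, 7 held 1 UMI and 1 held 2, or 1.27% (0.551 to 2.49). These cells held a median of 1695 UMIs (WT) against 1563 (N-LKO). With every cell thinned to 1000 UMIs, the shares were 10.3% and 0.477%. As a background, a Hhip UMI was found in 0.29% of hepatocyte-like cells from WT, against 0.024% from N-LKO, with free RNA at the levels given next.

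Free RNA in the suspension was estimated from barcodes under 500 UMIs, which contained 10 Hhip UMIs in WT and 2 in N-LKO. Deposited barcodes began at 326 UMIs in WT and 377 in N-LKO, so some of these may be cells low in RNA. The share of free RNA in a class came from hepatocyte markers, or from macrophage and endothelial markers for hepatocyte-like cells. It was 25.9% in WT and 36.1% in N-LKO stellate-like cells, and 80.5% and 42.3% in hepatocyte-like cells. At the share for stellate-like cells, free RNA would give 0.32 CPM of Hhip in WT against 0.12 CPM in N-LKO, both below the measured levels. Over all deposited barcodes, with no classes at all, Hhip counted 400 UMIs in WT and 33 in N-LKO, so the log2 ratio was -3.61 (-4.19 to -3.12). These totals include the stellate-like UMIs given above.

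**Figure D1:**
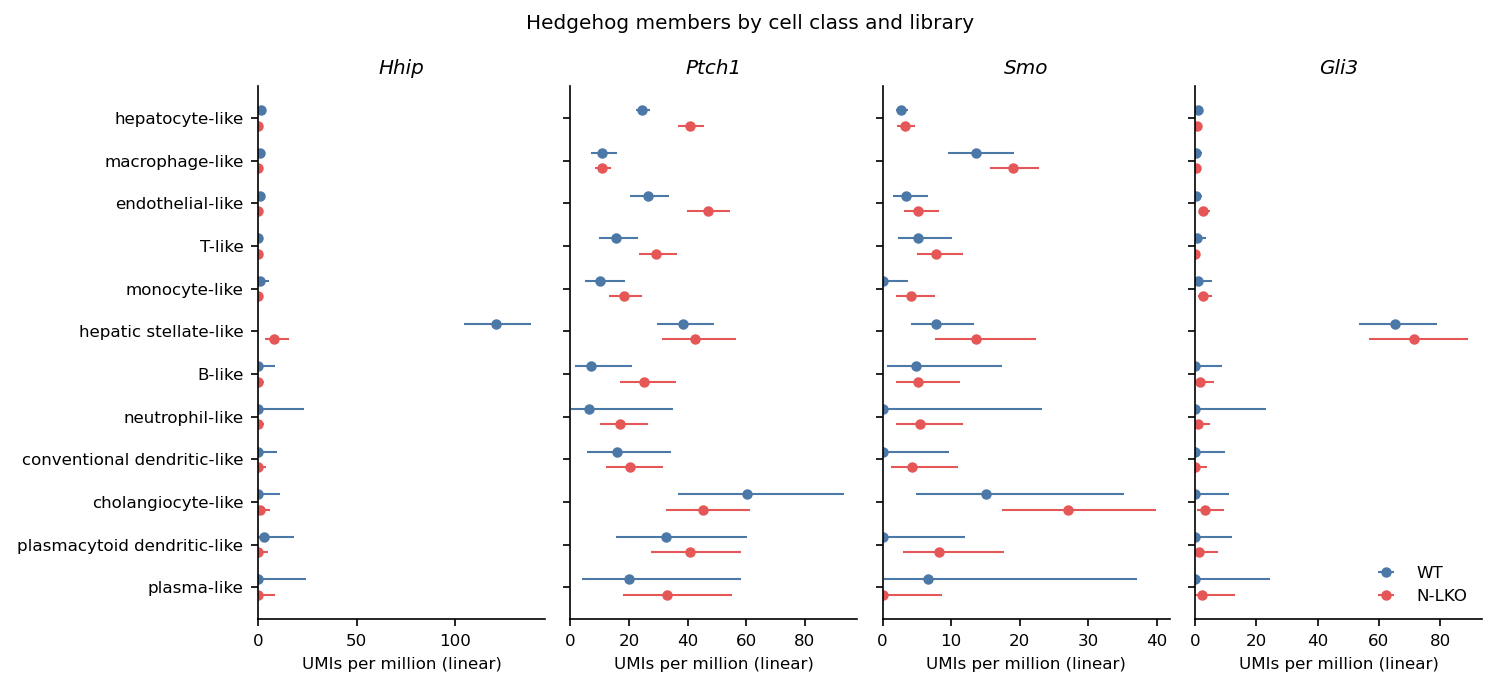
Level of Hhip, Ptch1, Smo and Gli3 (horizontal axes, CPM, linear, scaled per gene) in the 12 named classes with at least 200 cells, with WT in blue, N-LKO in red and bars for exact 95% Poisson intervals. Hhip and Gli3 stand out in hepatic stellate-like cells, where Hhip measured 120.5 CPM in WT against 8.16 CPM in N-LKO while Gli3 measured 65.4 and 71.6 CPM.

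Outside stellate-like cells Hhip was scarce. Stellate-like cells held 83.8% of the 240 Hhip UMIs of kept WT cells (78.5 to 88.2) while making up 4.89% of those cells, and 9 of the 12 Hhip UMIs in N-LKO. Hepatocyte-like cells came next in count, with 29 UMIs in WT (1.73 CPM, 1.16 to 2.49) and 1 in N-LKO (0.12 CPM), against 0.99 and 0.14 CPM that free RNA would give. No other named class held more than 2 Hhip UMIs in either library, and the levels of these classes could not be ordered within their intervals. T-like cells held no Hhip UMI in 1173 WT and 1917 N-LKO cells, and 3 UMIs would be 1.94 and 1.02 CPM.

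Stellate-like cells split into 3 sub-clusters, of which the first was shared between the libraries. Sub-cluster 1, with 406 WT and 137 N-LKO cells, was led by Kupffer cell genes such as Cd5l and Clec4f, and its macrophage markers summed to 6579 CPM in WT against 8227 CPM in N-LKO. Hhip there measured 95.2 CPM (80 UMIs) in WT and 10.9 CPM (3 UMIs) in N-LKO, so the log2 ratio was -2.91 (-5.43 to -1.53). The 10 leading genes of this sub-cluster hold none of the stellate markers. Those markers still summed to 8135 CPM there in WT and 5581 CPM in N-LKO.

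Sub-clusters 2 and 3 were each made up mostly of 1 library. Sub-cluster 2 held 38 WT and 487 N-LKO cells, with 3 and 6 Hhip UMIs (36.5 and 7.32 CPM). Its log2 ratio of -2.43 had an interval that included equality (-4.55 to 0.31). Sub-cluster 3 held 458 WT and 5 N-LKO cells, with 118 Hhip UMIs in WT (158 CPM) and 0 in N-LKO, where 5 cells are too few for a level. Both also held RNA of other types. The leading genes of sub-cluster 2 included the immunoglobulin genes Igha and Igkc, and those of sub-cluster 3 included Mup11, Mup7 and Hhip itself. Hepatocyte markers summed to 8970 CPM in WT cells of sub-cluster 3 and 7804 CPM in N-LKO cells of sub-cluster 2. The part of this RNA in the Hhip values was not tested. Without sub-cluster 1, the log2 ratio of Hhip over the class was -4.23 (-5.81 to -3.17). That value sets mostly WT cells of sub-cluster 3 against mostly N-LKO cells of sub-cluster 2. When cells needed at least 2000 UMIs, or at most 10% mitochondrial UMIs, no cluster met the naming rule for stellate-like cells, so Hhip could not be read in that class.

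**Figure D2:**
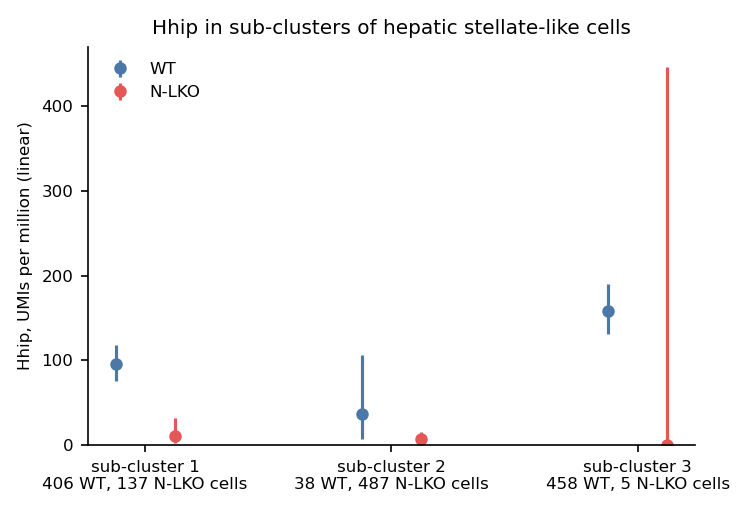
Hhip level (vertical axis, CPM, linear) in the 3 sub-clusters of hepatic stellate-like cells, with the number of cells of each library under the axis, WT in blue, N-LKO in red and bars for exact 95% Poisson intervals. In the shared sub-cluster 1 the intervals do not overlap (75.5 to 118 CPM for WT and 2.25 to 31.9 CPM for N-LKO), and in sub-cluster 3 the 5 N-LKO cells leave an upper limit of 447 CPM.

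All 10 genes of a quiescence list were lower in N-LKO, with a median log2 ratio of -0.84, beside -0.06 over all expressed genes. As that background median lies below 0, being lower was common in the class. Of the 10, 4 were at least 2-fold lower, beside 7.88% of all expressed genes. Most of the 10 stellate markers are on the quiescence list, so that list in part repeats their lower sum. Lrat, which esterifies retinol for storage, had a log2 ratio of -1.31, Reln -0.81, Ecm1 -1.57 and, outside that list, the proteoglycan gene Dcn -0.90. Pdgfrb, the platelet-derived growth factor receptor of stellate cells, was higher in N-LKO (128.7 CPM, against 91.2 CPM in WT, log2 ratio 0.50, 0.16 to 0.84). It and Tagln, given next, were chosen after their values were seen. Counted per UMI of the 10 stellate markers in place of per total UMI, Hhip had a log2 ratio of -3.02 (-4.24 to -2.14). That count adds 0.79 to every log2 ratio of the class, those of the quiescence and activation genes included.

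The 10 activation genes had a median log2 ratio of 0.31, and 3 of them were lower. Lox and Spp1 were at least 2-fold higher, beside 10.2% of all expressed genes, while Tagln, an actin-binding protein gene, was lower (-0.46, -0.90 to -0.04). The collagen genes Col1a1 and Col3a1 had log2 ratios of 0.88 (0.57 to 1.19) and 0.17 (0.01 to 0.33). The smooth muscle actin gene Acta2 had 20 UMIs in WT and 13 in N-LKO (log2 ratio -0.01, -1.16 to 1.05), and Timp1, an inhibitor of matrix proteases, 20 and 18 (0.45, -0.56 to 1.44). Des, a stellate intermediate filament gene, had a log2 ratio of -0.43 (-1.03 to 0.13), an interval that includes equality.

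Ptch1, the ligand receptor, did not share the pattern of Hhip in stellate-like cells. It counted 64 UMIs in WT (38.4 CPM, 29.6 to 49.0) and 47 in N-LKO (42.6 CPM, 31.3 to 56.6), with a log2 ratio of 0.15 (-0.42 to 0.72). Shares of cells with a UMI were 6.65% and 6.68%. Free RNA would give 3.37 CPM of Ptch1 in stellate-like cells from WT and 4.73 CPM in those from N-LKO. Ptch1 UMIs were found in every other named class, but in WT some of these levels were at background. B-like cells of WT had 7.21 CPM against 6.62 CPM from free RNA, and the neutrophil-like and erythroid-like cells of WT held 1 Ptch1 UMI each.

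In several other classes Ptch1 was higher in N-LKO. In endothelial-like cells it measured 26.4 CPM (WT) and 46.9 CPM (N-LKO), with a log2 ratio of 0.82 (0.40 to 1.27), and 15.5 and 29.4 CPM in T-like cells (0.90, 0.26 to 1.64). Free RNA would give 6.22 and 6.38 CPM in endothelial-like cells, and 6.23 and 6.05 CPM in T-like cells. In B-like cells it counted 3 UMIs in WT but 29 in N-LKO (7.21 and 25.1 CPM, log2 ratio 1.60, 0.11 to 4.16), with the WT level at background as given above. Ptch1 was near equal in macrophage-like cells, at 10.9 and 11.0 CPM, and cholangiocyte-like cells had 60.4 and 45.4 CPM with overlapping intervals. Genes of a span in the genome like that of Ptch1 had median log2 ratios of 0.27 in endothelial-like, 0.28 in T-like and 0.22 in B-like cells.

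Hepatocyte-like cells held the most Ptch1 UMIs, 412 in WT (24.6 CPM) and 352 in N-LKO (41.0 CPM), with a log2 ratio of 0.74 (0.53 to 0.94). The median over all genes of the class was 0.39, and over genes of like span 0.68. Free RNA would give 10.5 CPM of Ptch1 in WT hepatocyte-like cells and 5.55 CPM in those of N-LKO. Different clusters held this class in the libraries: cluster 1 held 8126 of the 9930 WT cells, and clusters 6 and 7 held 1992 and 2062 of the 4145 N-LKO cells. Within N-LKO, Ptch1 measured 24.5 CPM in cluster 6 and 60.6 CPM in cluster 7. With cells kept from 500 UMIs, the log2 ratio for hepatocyte-like cells was -0.14 (-0.46 to 0.16).

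Smo, the transducer, was sparse everywhere. Stellate-like cells held 13 UMIs in WT and 15 in N-LKO (7.80 and 13.6 CPM, log2 ratio 0.79, -0.37 to 1.99). Macrophage-like cells had 13.7 and 19.0 CPM and cholangiocyte-like cells 15.1 and 27.0 CPM, with intervals of the ratio that included equality in both. Over all deposited barcodes Smo counted 219 UMIs in WT and 564 in N-LKO (2.56 and 6.44 CPM), but the same direction was present in barcodes under 500 UMIs, at 1.59 and 6.07 CPM.

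Gli3 shared the cell class of Hhip but not its difference between the libraries. It counted 109 UMIs in WT (65.4 CPM, 53.7 to 78.9) and 79 in N-LKO stellate-like cells (71.6 CPM, 56.7 to 89.2), with a log2 ratio of 0.13 (-0.31 to 0.56). Shares of cells with a Gli3 UMI were 11.0% and 11.3%. Stellate-like cells held 82.0% of the Gli3 UMIs of kept WT cells and 64.2% in N-LKO, and in sub-cluster 1 Gli3 measured 63.1 and 50.9 CPM. In WT, the 99 stellate-like cells with a Gli3 UMI held 32 Hhip UMIs (151.5 CPM, 104 to 214) and the 803 without held 169 (116 CPM, 99.2 to 135). In N-LKO, the 71 with a Gli3 UMI held 4 (29.6 CPM) and the 558 without held 5 (5.16 CPM), and the intervals overlap in both libraries.

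Gli1 and Gli2 were not detectable in stellate-like cells. Both counted 0 UMIs there in 902 WT and 629 N-LKO cells, and a count of 3 UMIs would be 1.80 and 2.72 CPM. Gli1, the gene most often read as a sign of pathway activity, had 0 UMIs in kept WT cells and 1 in N-LKO, in a neutrophil-like cell. In the annotation Gli1 overlaps Arhgap9 and Gm47200, which both lie on the opposite strand. Gli2 had 2 UMIs in WT and 10 in N-LKO over kept cells. Of the 10, 5 lay in cluster 23, a group of 35 WT and 77 N-LKO cells that held both mesothelial and portal fibroblast markers and was left unnamed.

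The ligands were close to absent. Ihh counted 19 UMIs in WT and 17 in N-LKO over all kept cells, of which 14 and 9 lay in hepatocyte-like cells (0.84 and 1.05 CPM, log2 ratio 0.35, -1.06 to 1.64). Free RNA would give 0.30 and 0.42 CPM there. In kept cells Shh counted 3 and 2 UMIs and Dhh 2 and 6, and the intervals of all 3 ratios included equality. Over all deposited barcodes Ihh counted 48 and 40 UMIs and Dhh 3 and 9, again with intervals that included equality. Shh counted 10 in WT and 2 in N-LKO there, with a log2 ratio of -2.10 (-5.59 to -0.13).

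A list of 53 genes covering ligand release, reception, transduction, the cilium and targets showed no common direction as a whole in stellate-like cells. Of the 53, 36 reached 5 CPM in at least 1 library, and their median log2 ratio was -0.07, beside -0.06 over all expressed genes. At least 2-fold lower were 4 of the 36 (11.1%, beside 7.88% of all expressed genes), Hhip included, which was chosen for it. At least 2-fold higher were 3 (8.33%, beside 10.2%). All 7 had an interval that excluded equality. Without sub-cluster 1 the counts were 4 lower and 4 higher. Counting per UMI of the stellate markers adds 0.79 to the log2 ratio of every gene. The counts were then 2 lower and 12 higher, beside 1.49% and 34.8% of all expressed genes, and the list median was 0.72 beside 0.73. By role, per total UMI, 4 of 5 targets that reached 5 CPM were lower and 0 higher, with intervals that excluded equality. The 4 were Foxf1, Bmp4, Ccnd1 and Ccnd2. Each other role held at most 1 such lower and 2 such higher genes, and roles were not tested. The share of all expressed genes with such an interval is not given here, so these counts have no background. Hhip and Ptch1, also induced by the pathway, were counted under other roles, and Ptch1 had a log2 ratio of 0.15. Per UMI of the stellate markers, Foxf1, Bmp4, Ccnd2 and Ccnd1 had log2 ratios of -2.24, -0.29, -0.10 and 0.039.

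The lower genes besides Hhip were Foxf1, Gas1 and Bmp4. Foxf1, a forkhead factor of mesenchyme and a known hedgehog target, counted 92 UMIs in WT and 7 in N-LKO (55.2 and 6.34 CPM, log2 ratio -3.03, -4.47 to -2.02). Gas1, a membrane-anchored co-receptor, counted 51 and 10 (30.6 and 9.06 CPM, log2 ratio -1.70, -2.90 to -0.76). Bmp4, a secreted signal and target, counted 33 and 10 (log2 ratio -1.08, -2.31 to -0.07). In hepatocyte-like cells Gas1 counted 425 and 45 UMIs (25.4 and 5.24 CPM, log2 ratio -2.26), against 11.4 and 1.94 CPM from free RNA. In endothelial-like cells its 8.37 and 3.45 CPM stood beside 6.81 and 2.23 CPM from free RNA, which lie within the intervals of the levels.

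The higher genes were Scube1, Boc and Gpc6. Scube1, a relative of the ligand-release factor Scube2, counted 12 UMIs in WT and 46 in N-LKO (log2 ratio 2.49, 1.59 to 3.59). Boc, a co-receptor, counted 4 and 15 (2.38, 0.85 to 4.55), and is named here after its value was seen. Gpc6, a glypican, counted 810 and 1646 (486 and 1492 CPM, log2 ratio 1.62, with an interval above 0). Gpc6 was also higher in N-LKO endothelial-like (1.73), macrophage-like (1.71) and T-like cells (2.23), but free RNA held more of it in N-LKO as well. Free RNA would give 17.8 of the 19.0 CPM in N-LKO macrophage-like cells, 25.3 of the 25.6 CPM in T-like cells and 26.7 of the 38.0 CPM in endothelial-like cells. In stellate-like cells it would give 3.30 (WT) and 19.8 CPM (N-LKO).

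Smaller differences had intervals that excluded equality in 7 other genes of the list. The share of all expressed genes with such intervals is not given here, so this count is not read as a trait of the list. Lower were Grk2 (-0.76), a kinase acting on Smo, Csnk1a1 (-0.48) and the cyclin genes Ccnd1 (-0.75) and Ccnd2 (-0.90). Higher were Btrc (0.54) and Cul3 (0.46), parts of ubiquitin ligases that act on Gli proteins, and Ift88 (0.91), a gene of ciliary transport. Counted per UMI of the stellate markers, Ccnd1, Grk2 and Csnk1a1 had log2 ratios of 0.039, 0.031 and 0.31, which is the same shift of 0.79.

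In the other 5 classes compared, the list median was above the median over all genes, as a description. In hepatocyte-like cells 10 of the 25 list genes that passed the filter were at least 2-fold higher and 1 was lower, beside 21.9% and 2.4% of all genes, and the list median of 0.74 stood beside 0.39 over all genes. In endothelial-like cells 5 of 30 were higher and 1 lower (beside 12.3% and 7.41%), and in cholangiocyte-like cells 4 of 33 were higher and 1 lower (beside 12.1% and 11.8%). In macrophage-like cells 3 of 26 were higher and 1 lower (beside 4.82% and 6.35%), and in T-like cells 4 of 27 were higher and 1 lower (beside 11.8% and 8.26%). The higher genes of macrophage-like and T-like cells include Gpc6, whose N-LKO level there free RNA would nearly give. Gpc6 was also among the higher genes of endothelial-like cells, where free RNA would give a part of its level, as stated above. These lists share most genes between classes, and the excess in hepatocyte-like cells was not tested.

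**Figure D3:**
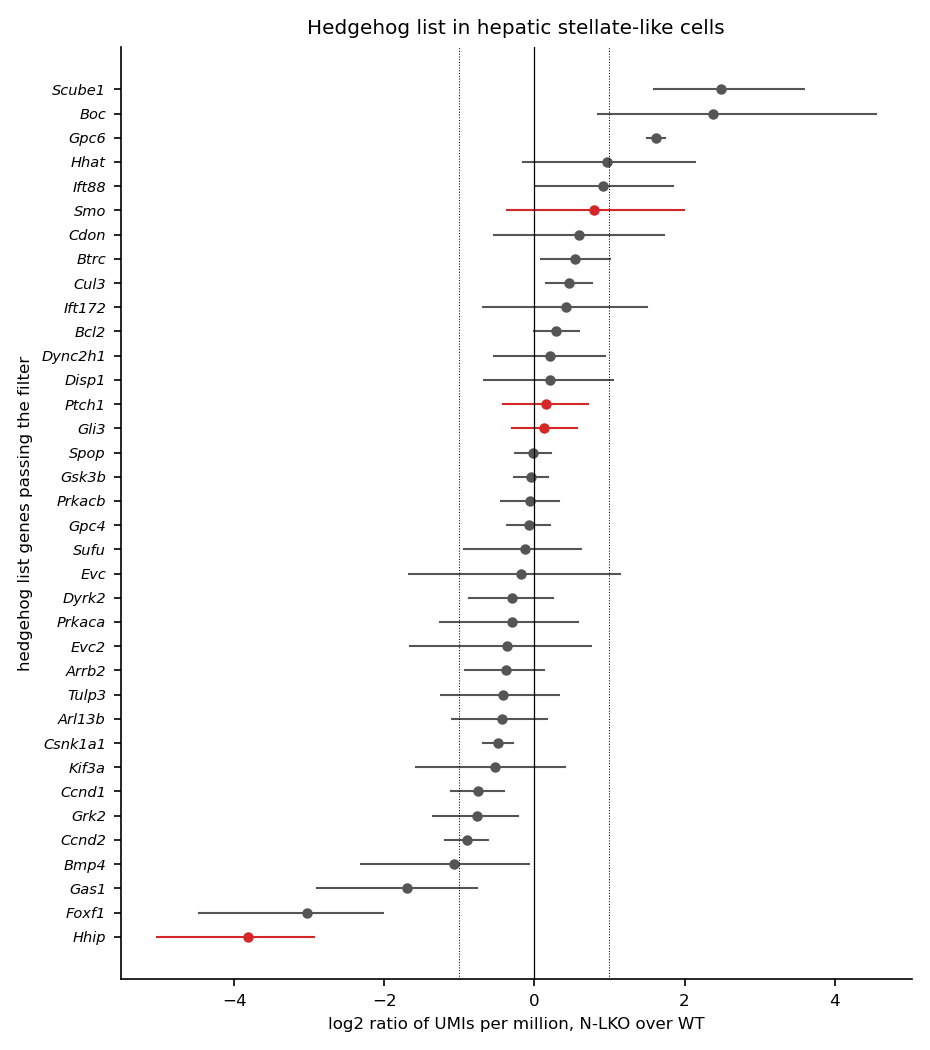
Log2 ratio of CPM, N-LKO over WT (horizontal axis), for the 36 hedgehog list genes that reached 5 CPM in hepatic stellate-like cells, ordered by ratio, with members in red, other genes in gray, bars for exact 95% intervals and dotted lines at a 2-fold difference. Hhip (-3.81) and Foxf1 (-3.03) lie at the bottom, and Ptch1, Smo and Gli3 have bars that cross 0.

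**Figure D4:**
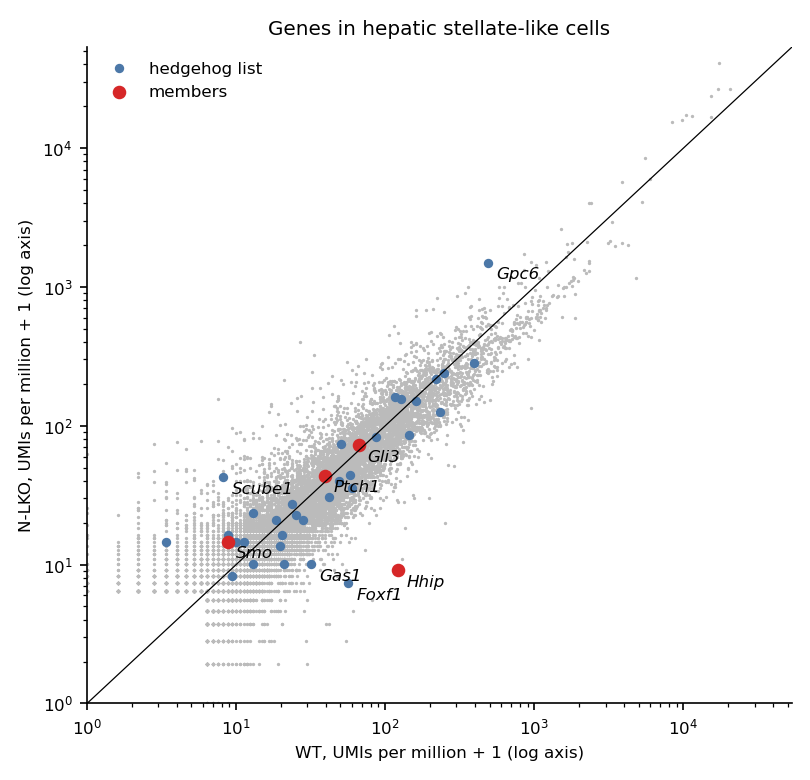
Level of 12117 genes in hepatic stellate-like cells of WT (horizontal) and N-LKO (vertical), as CPM plus 1 on log axes, with the hedgehog list in blue, members in red and a line of equality. Hhip lies far below the line at 120.5 and 8.16 CPM, and Ptch1 and Gli3 lie close to it.

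Foxf1 was also the gene with the highest Pearson correlation with Hhip. Over 24 profiles of a class in a library, and among 13402 genes, the 10 highest Pearson correlations with Hhip belonged to Foxf1 (0.913), Bmp10, Col14a1, Colec11, Srpx2, Des, Angptl6, Cxcl12, Tnfrsf11b and Wfdc1 (0.846). The profiles share 2 libraries. By rank correlation none of these 10 stayed among the 10 most alike, and most Hhip profiles are tied at 0. In stellate-like cells the log2 ratios of the 10 ran from -3.03 for Foxf1 to -0.43 for Des, all weaker than that of Hhip. The 24 profiles include the stellate-like cells of WT and of N-LKO. Genes lower there in N-LKO were thus favored in advance, and nothing is rested on these ratios.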

How the data were processed

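Single cells of 1 WT and 1 N-LKO library were measured on a 10x 3′ platform. The authors deposited UMI counts per gene and barcode, which per the file headers come from Cell Ranger 7.1.0. The submitters' processing notes name Cell Ranger, Seurat and mm9, while 32235 of 32285 gene identifiers are in GENCODE M21, so no coordinate was taken from the files. Whether reads in introns were counted is not given in the sources used here.

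Cells were kept with at least 1000 UMIs, 400 genes and at most 30% mitochondrial UMIs. Doublets scored above 0.25 by Scrublet in scanpy 1.11.5 were removed (8.57% in WT, 10.6% in N-LKO). The 2000 most variable genes, without the hedgehog list, gave 30 components, a graph over 20 neighbors and leidenalg 0.10.2 clusters at resolution 0.3. Clusters were named from 18 marker lists, 20 of 23 clusters received a name and 3 stayed mixed. No cell annotation of the authors entered, so a difference from the study may come from these rebuilt names.

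UMIs were summed per class and library. The log2 ratio adds 0.5 UMI to each count, its interval is the exact conditional binomial one at 95%, and with 1 library per group no p-value was computed. The interval and ratio code was tested on simulated data. Named genes were the members, list genes with at least 20 UMIs and an interval that excludes equality, the 10 most like Hhip, Nus1, stellate genes, Shh and Dhh. Another gene of the pathway list is not reported here and entered no count. Members and lists were chosen with earlier results of these data known.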

Additional observations from a re-analysis of the deposited data

Results flagged for a closer look

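With 1 library per group no sample could stand apart from its group, and the differences between classes given here were not tested. Ccnd1 was lower in N-LKO in stellate-like (-0.75) and macrophage-like cells (-0.67) and higher in hepatocyte-like cells (0.91), each with an interval that excludes equality. Grk2 was lower in stellate-like (-0.76) and macrophage-like cells (-0.39) and higher in hepatocyte-like cells (0.40), again with such intervals. Csnk1a1 was lower in stellate-like (-0.48) and endothelial-like cells (-0.15) and higher in hepatocyte-like cells (0.18), likewise.

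Barcodes under 500 UMIs, which entered no class, held more of 2 pathway genes in N-LKO than in WT. Smo measured 6.07 CPM there in N-LKO and 1.59 CPM in WT, and Gli3 3.77 and 1.59 CPM.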

How the results depend on the processing

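No paired analysis was possible because each group had 1 library and no test was made. The Hhip log2 ratio stayed between -4.43 and -3.02 under 11 alternatives, 3 of them added after seeing the data, and its interval lay below 0 in all 11. All 11 reuse the libraries in which Hhip was chosen for this difference, so they are not separate support. At clustering resolution 0.8 the stellate-like cells again numbered 902 and 629, with the same 201 and 9 Hhip UMIs. With at least 2000 UMIs per cell, or at most 10% mitochondrial UMIs, no cluster was named hepatic stellate-like, so these settings gave no Hhip value in that class. Scaling to the stellate markers adds 0.79 to every log2 ratio, so the list median was 0.72, beside 0.73 over all genes. The number of list genes at least 2-fold lower was 2 when scaled to the stellate markers. The number at least 2-fold higher was 5 from 500 UMIs per cell, 5 with free RNA subtracted, 5 without mitochondrial UMIs, 9 with no filter and 12 when scaled to the stellate markers. Reversed were Ptch1 in hepatocyte-like cells from 500 UMIs (-0.14) and, scaled to the stellate markers, Ccnd1 (0.039), Grk2 (0.031) and Csnk1a1 (0.31). The last 3 are the same shift of 0.79 that is added to every gene, and the cause for Ptch1 was not tested. Spearman correlation shared 0 of the 10 genes most like Hhip. Of 350 values for single genes, 15 moved outside their interval, and the 4 reversed values, counted apart, also lay outside theirs. Sparse counts limit Gli1, Gli2, Ihh and Smo.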
